A study of Mus musculus with 6 samples.

Results

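The genes described here encode 10 secreted ligands that act on blood and lymph vessels: the angiopoietins Angpt1 and Angpt2, the angiopoietin-like proteins Angptl2, Angptl4 and Angptl7, the vascular endothelial growth factors (VEGFs) Vegfa, Vegfb and Vegfc, placental growth factor (Pgf), and fibroblast growth factor 2 (Fgf2). They were taken by gene symbol from a table of 22869 named genes, using for each the transcript row with the highest mean, and all 10 had a row. Angptl7 was selected on its measured level in lactotropes, so its difference between the cell types is given as a description without a test. The other 9 were listed as relatives, with results of these data already known.

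The RNA came from female mice, hybrids of CD1 x C57BL/6 that were 6 to 8 weeks old. Their pituitary cells were sorted by fluorescence into somatotropes, which secrete growth hormone (3 libraries), and lactotropes, which secrete prolactin (3 libraries). No allele or treatment is named in the labels. The gate used for sorting, and how many animals a library held, are not given in the sources used here, and p-values therefore measure the spread between these libraries. Levels are in FPKM, mapped fragments scaled for transcript length and library size, which allows genes to be compared per length.

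Angiopoietins and VEGFs are made by many tissues and are received mainly by endothelial cells. Angpt1 activates the endothelial receptor Tek (Tie2) and stabilises vessels, while Angpt2 can oppose it. Vegfa acts through Kdr and Flt1, Vegfb and Pgf through Flt1, and Vegfc through Flt4, the receptor of lymphatic endothelium. The anterior pituitary is among the most densely vascularised glands, its endocrine cells lie against fenestrated capillaries, and both Vegfa and Fgf2 have a history in this gland: VEGF was purified from medium of pituitary folliculostellate cells and FGF2 from pituitary tissue.

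Both hormones stood on the side that the labels give. Gh made up 9.95% to 27.4% of the summed FPKM in somatotrope libraries and 0.944% to 3.30% in lactotrope libraries, and Prl 12.1% to 53.0% in lactotrope and 3.38% to 11.3% in somatotrope libraries. The test across genes covered the 11642 genes whose mean reached 1 FPKM. Lactotrope 3 listed 14.9% of them at 0, where the remaining 5 libraries listed 0.232% to 2.95%, and 5 of the 10 ligand genes were among its zeros. A value of 0 is therefore given as listed. In somatotrope 1 and lactotrope 1, 100% and 99.4% of low values of single-exon genes came to whole fragments (tolerance 0.1), which put the depth at about 28850000 fragments for somatotrope 1 and 17350000 fragments for lactotrope 1. In the other 4 libraries 25.5% to 47.1% did, and the depth is unknown. In 3 of these (somatotropes 2 and 3 and lactotrope 3) 49.7% to 50.6% of values above 0 carried 1 more decimal than any value of the remaining libraries, and it was always a 5. Means of pairs of values would have this form, and the sources used here do not say whether these columns are such means.

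The stretch of 250 bases upstream of the transcript start is shown for Angptl7, which had the widest log2 gap between the cell types among the 10 ligands, beside those of Vegfa and Vegfb, which had similar levels in both. RefSeq gives these sequences in build GRCm38.p6, all on the minus strand and written in the direction of transcription. Capitals mark GC boxes, the letters GGGCGG on either strand, which the general activator Sp1 binds. They come from chr4:148500463-148500712 for Angptl7, chr17:46032378-46032627 for the outer start of Vegfa and chr19:6987652-6987901 for Vegfb.
Angptl7: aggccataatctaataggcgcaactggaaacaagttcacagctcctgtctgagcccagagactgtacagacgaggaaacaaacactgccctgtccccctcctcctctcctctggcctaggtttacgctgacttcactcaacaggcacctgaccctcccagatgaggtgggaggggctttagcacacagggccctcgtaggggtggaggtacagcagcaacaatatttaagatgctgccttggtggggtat
Vegfa: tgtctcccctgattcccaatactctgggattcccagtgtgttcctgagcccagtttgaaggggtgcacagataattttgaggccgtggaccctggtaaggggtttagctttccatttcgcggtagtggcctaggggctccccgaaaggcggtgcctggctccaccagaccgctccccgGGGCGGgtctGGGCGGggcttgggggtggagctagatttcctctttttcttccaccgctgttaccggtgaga
Vegfb: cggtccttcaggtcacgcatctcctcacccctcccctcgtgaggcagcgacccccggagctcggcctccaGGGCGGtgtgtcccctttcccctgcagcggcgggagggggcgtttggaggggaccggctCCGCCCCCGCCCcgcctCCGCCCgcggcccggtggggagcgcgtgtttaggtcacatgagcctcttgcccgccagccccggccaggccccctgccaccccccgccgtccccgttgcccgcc

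No GC box stood in the Angptl7 stretch, while the outer Vegfa stretch held 2 and the Vegfb stretch 4. The Vegfa level is that of a transcript row with the inner start, and the stretch before that start held 1. Of the 32851 RefSeq windows of this length, 32.7% held at least 1. Angptl7 had a G and C content of 54.4% and 4 CpG dinucleotides, close to the medians over all windows of 52.4% and 6. Vegfb had 76.4% and 26. Sequences were found for 7 of the 10 genes, in 9 windows, and the other 8 windows had a G and C content of 59.2% to 76.4%. A Pgf window (chr12:85175983-85176232) also held no GC box, at a G and C content of 66.4%. Each of the remaining windows held 1 to 4. The letters TATNCAT, a core of sites for the pituitary factor Pou1f1, were searched on either strand and stood in none of the 9 windows and in 7.92% of all windows. A match or its absence describes these letters in this window and nothing further.

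The ligands were expressed at low to middling levels, and which of them led differed between libraries. By the mean over 6 libraries, Angpt1 was the highest, above 80.7% of all named genes, and Fgf2 the lowest, above 36.4%. The leading ligand was Vegfc in somatotrope 1, Angptl4 in somatotropes 2 and 3, Angpt1 in lactotropes 1 and 3, and Angptl7 in lactotrope 2. Between 5 and 7 of the 10 genes exceeded 1 FPKM in a library. Angpt2, Pgf and Fgf2 had a mean under 1 FPKM, so 7 members entered that test.

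**Figure D1:**
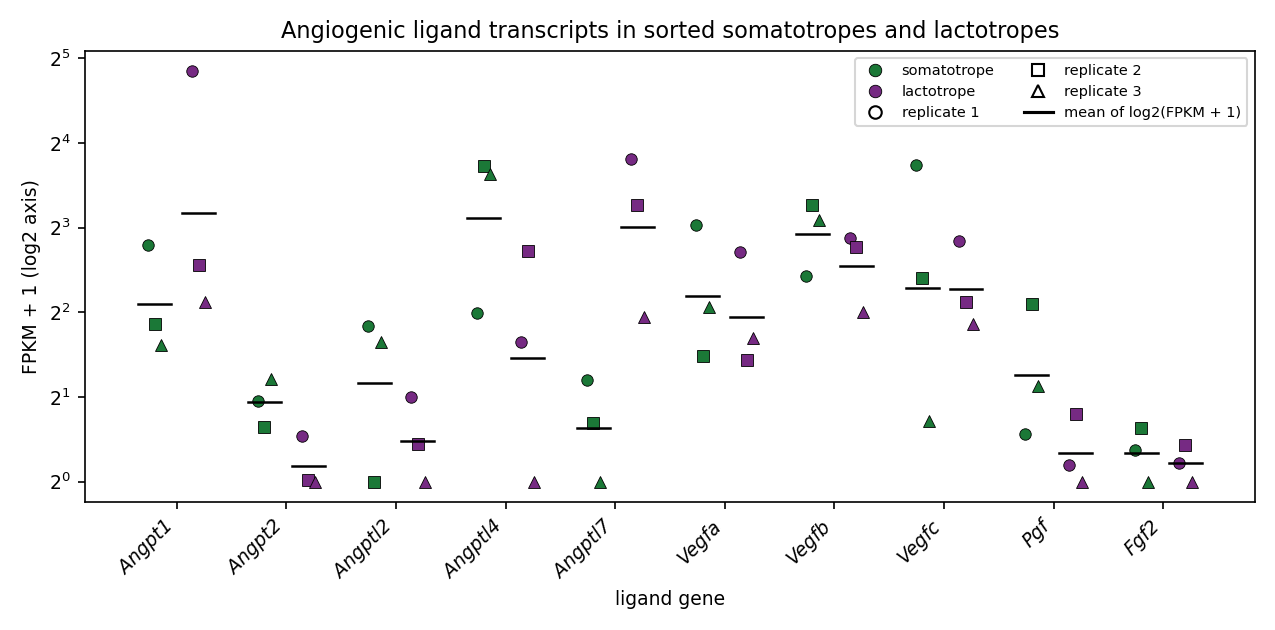
Level of each ligand gene (FPKM + 1, log2 axis) in somatotropes and lactotropes, where symbols stand for replicates 1 to 3 and black bars for means on the log2 scale. For Angptl7 all 3 lactotrope libraries lie above all 3 somatotrope libraries, for Angpt2 the order is the opposite, and for the other 8 genes the cell types overlap.

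Among the angiopoietins and their relatives, Angptl7 was higher in lactotropes, Angpt1 leaned the same way, and Angpt2 and Angptl4 leaned toward somatotropes. Angptl7, a secreted protein best known from the cornea and the eye's outflow tissue, lies on chromosome 4 (147869389 to 147874571, minus strand, build mm9 as for all genes of the table). Lactotropes 1 to 3 had 13.0, 8.61 and 2.83 FPKM of it. Somatotropes 1 to 3 had 1.29, 0.614 and a listed 0. The lowest lactotrope library stood above the highest somatotrope library. The mean of 8.16 ± 5.12 FPKM (SD, n = 3) in lactotropes was 12.8 times the somatotrope mean of 0.636 ± 0.647 FPKM (SD, n = 3). Within replicates 1 and 2 the lactotrope level was 10.1 and 14.0 times the somatotrope level. The difference on the log2(FPKM + 1) scale, somatotrope minus lactotrope, was -2.38, and it was -3.91 with a pseudocount of 0.1. In sorted bulk RNA, fewer cells of a type and less RNA per cell cannot be told apart.

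Angpt1 (chromosome 15, 42256271 to 42508341, minus strand) was present in all 6 libraries, at 5.96, 2.64 and 2.06 FPKM in somatotropes 1 to 3 and 27.7, 4.87 and 3.34 FPKM in lactotropes 1 to 3. The lactotrope library was higher in each replicate, by 4.66, 1.85 and 1.62 times, but somatotrope 1 exceeded lactotropes 2 and 3, so the cell types overlapped. The log2 difference was -1.08 (SE 0.81, limma adjusted p = 1.00 over all genes), and it was -0.24 without lactotrope 1. Angpt2 (chromosome 8, 18691337 to 18741551, minus strand) was the reverse at much lower levels, with 0.939, 0.567 and 1.31 FPKM in somatotropes and 0.458, 0.0115 and a listed 0 FPKM in lactotropes. Its somatotrope libraries lay above its lactotrope libraries without overlap, with a log2 difference of 0.75, or 2.43 with a pseudocount of 0.1. For Angpt2 by itself a two-sided exact permutation test gave p = 0.1, below which a comparison of 3 with 3 libraries cannot go. The level of Angpt1 was 6.34, 4.65 and 1.58 times that of Angpt2 in somatotropes 1 to 3 and 60.5 times in lactotrope 1. In lactotropes 2 and 3 Angpt2 was close to or at 0.

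Angptl4, an inhibitor of lipoprotein lipase that responds to fasting and low oxygen (chromosome 17, 33911845 to 33918520, minus strand), had 2.96, 12.2 and 11.4 FPKM in somatotropes 1 to 3. In lactotropes 1 to 3 it had 2.15, 5.63 and a listed 0 FPKM. The somatotrope library was higher in each replicate, yet lactotrope 2 exceeded somatotrope 1. The log2 difference of 1.65 (SE 0.84) did not pass limma's test over all genes (adjusted p = 1.00), and it was 0.92 without lactotrope 3. Angptl2, which is linked to inflammation in fat and other tissues (chromosome 2, 33071481 to 33103234, plus strand), had 2.58, a listed 0 and 2.14 FPKM in somatotropes and 1.00, 0.356 and a listed 0 FPKM in lactotropes. Replicate 2 went against the other 2, and the log2 difference of 0.68 (SE 0.68, limma adjusted p = 1.00) was no larger than its SE. It ran from 0.34 without somatotrope 1 to 1.26 without somatotrope 2.

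None of the VEGF genes stood clearly on one side, and for Vegfa the replicates lay further apart than the cell types did. Vegfa, the main driver of endothelial growth and fenestration, had 7.15, 1.79 and 3.17 FPKM in somatotropes 1 to 3 and 5.57, 1.71 and 2.23 FPKM in lactotropes 1 to 3. Both replicate 1 libraries were the highest and both replicate 2 libraries the lowest, and within a replicate the somatotrope level was 1.28, 1.04 and 1.43 times the lactotrope level. The log2 difference was 0.24 (SE 0.74, limma adjusted p = 1.00), close to the median of 0.18 over all genes tested, and it was -0.18 without somatotrope 1 and -0.01 without lactotrope 2.

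Vegfa had 6 transcript rows on chromosome 17, all ending their transcripts at 46153943 on the minus strand, 3 of them starting at 46169326 and 3 at 46162112. The starts lie 7214 bases apart, the same distance as between both Vegfa starts in the RefSeq windows. Within a library the highest row exceeded the lowest by 1.07 to 1.18 times. The rows share most of their sequence, and the sources used here do not give how fragments were divided among them. These values do not tell the isoforms apart.

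Vegfb (chromosome 19, 7056962 to 7062141, minus strand) was present in every library, with 4.40, 8.64 and 7.49 FPKM in somatotropes and 6.34, 5.80 and 3.01 FPKM in lactotropes. Replicate 1 was higher in lactotropes and replicates 2 and 3 in somatotropes. The log2 difference was 0.38 (SE 0.66, limma adjusted p = 1.00), and it ran from 0.11 without lactotrope 3 to 0.63 without somatotrope 1. Vegfc (chromosome 8, 55162886 to 55271808, plus strand) ranged widely in somatotropes, at 12.3, 4.30 and 0.648 FPKM, and less in lactotropes, at 6.18, 3.34 and 2.63 FPKM. The somatotrope libraries held both the highest and the lowest value of the 6. The log2 difference was 0.01 (SE 0.83, limma adjusted p = 1.00) and turned below 0 under each of the 3 other scalings run, with values between -0.20 and -0.05.

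Pgf (chromosome 12, 86507591 to 86518235, minus strand) was low, with 0.479, 3.28 and 1.19 FPKM in somatotropes and 0.145, 0.744 and a listed 0 FPKM in lactotropes. It was higher in somatotropes in each replicate, by 3.32 and 4.41 times in replicates 1 and 2, and lactotrope 2 exceeded somatotrope 1. Its log2 difference was 0.93, or 2.31 with a pseudocount of 0.1, and a two-sided exact permutation test of Pgf alone gave p = 0.2. Fgf2 (chromosome 3, 37247575 to 37303752, plus strand) did not exceed 0.552 FPKM in any library and was listed at 0 in replicate 3 of both cell types. At these levels a difference between the cell types was not detectable.

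Over the whole set, 4 of the 10 genes were higher in somatotropes in all 3 replicates (Angpt2, Angptl4, Vegfa and Pgf) and 2 were higher in lactotropes in all 3 (Angpt1 and Angptl7). Among the 11642 genes tested these shares were 22.9% and 11.2%. Angpt2 and Pgf, whose means were under 1 FPKM, are not among the genes tested. The libraries of the cell types did not overlap for Angpt2, with somatotropes above, which held for 2.51% of genes tested, and for Angptl7, with lactotropes above, which held for 1.15% and follows from how Angptl7 was picked. The median log2 difference of the 10 genes was 0.31, and 0.38 without Angptl7, beside 0.18 over all genes tested. Of the 6 members tested, Angptl7 left aside, none had a limma adjusted p of at most 0.05, and the same held over the whole table (0 of 11642 genes, 0%). Before adjustment 112 genes had p under 0.05. With the replicate number as a block the count before adjustment was 1271, and 0 genes passed after it.

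**Figure D2:**
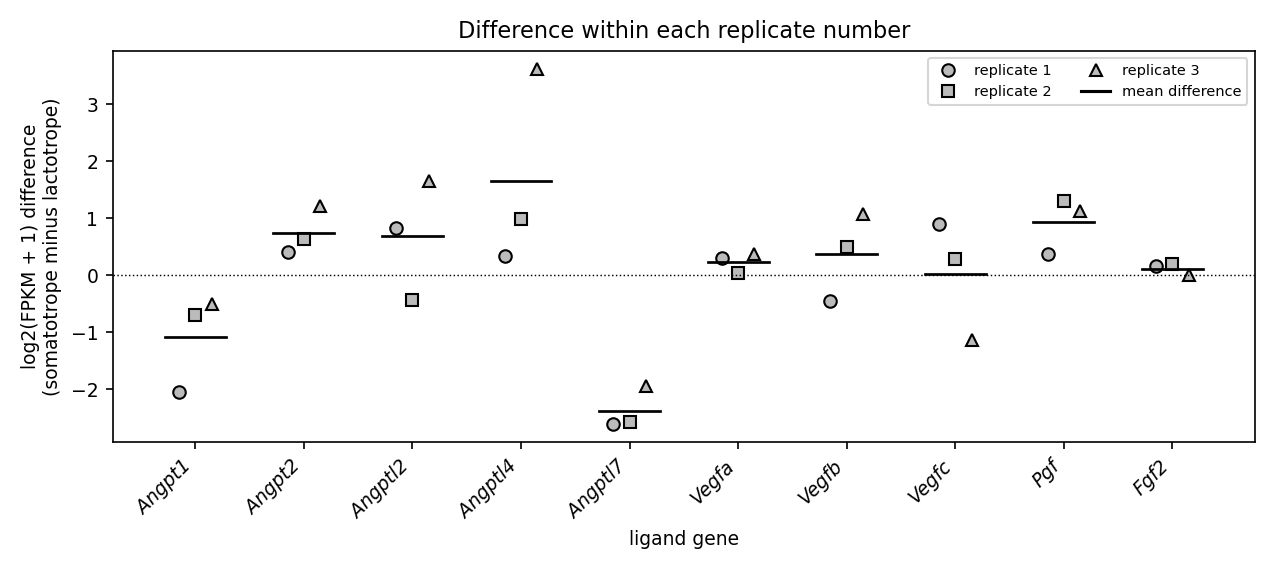
Difference in log2(FPKM + 1), somatotrope minus lactotrope, for each ligand gene within replicates 1 to 3 (symbols) and their mean (line), with a dotted line at 0. Angptl7 and Angpt1 lie below 0 in all 3 replicates, while Angptl2, Vegfb and Vegfc change sign between replicates.

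The main endothelial receptors of the angiopoietins and VEGFs were close to 0 in the sorted cells. Over the 6 libraries Tek did not exceed 0.132 FPKM, Tie1 0.43, Flt1 0.034, Kdr 0.139 and Flt4 0.0781 FPKM, and Flt4 was listed at 0 in 5 of 6 libraries. The fibroblast growth factor receptors were higher, with Fgfr1 at 2.37, 8.35 and 4.99 FPKM in somatotropes and 1.79, 5.61 and 0.261 FPKM in lactotropes. Fgfr2 had 1.16, 8.96 and 1.48 FPKM in somatotropes and 1.10, 1.86 and a listed 0 FPKM in lactotropes. Somatotropes had more of both in each replicate. The log2 differences were 1.01 (SE 0.80) for Fgfr1 and 1.05 (SE 0.79) for Fgfr2, with a limma adjusted p of 1.00 for each. Fgfr1 was 0.42 without lactotrope 3 and 1.61 without lactotrope 2, and Fgfr2 was 0.35 without somatotrope 2. Among 11 receptor genes these and Nrp1 were the 3 whose mean reached 1 FPKM.

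Nrp1, neuropilin 1, a co-receptor for Vegfa that also binds semaphorins, was higher in lactotropes. Lactotropes 1 to 3 had 7.84, 9.06 and 4.76 FPKM, and somatotropes 1 to 3 had 1.57, 2.61 and 1.07 FPKM. The lowest lactotrope value lay above the highest somatotrope value, as for 1.15% of all genes tested. The means were 7.22 ± 2.22 and 1.75 ± 0.786 FPKM (SD, n = 3 each), a log2 difference of -1.58 (SE 0.68) that did not pass limma's test over all genes (adjusted p = 1.00, and 0.0759 to 1.00 over the alternatives). Its relative Nrp2 stayed between 0.437 and 1.14 FPKM with overlapping cell types.

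**Figure D3:**
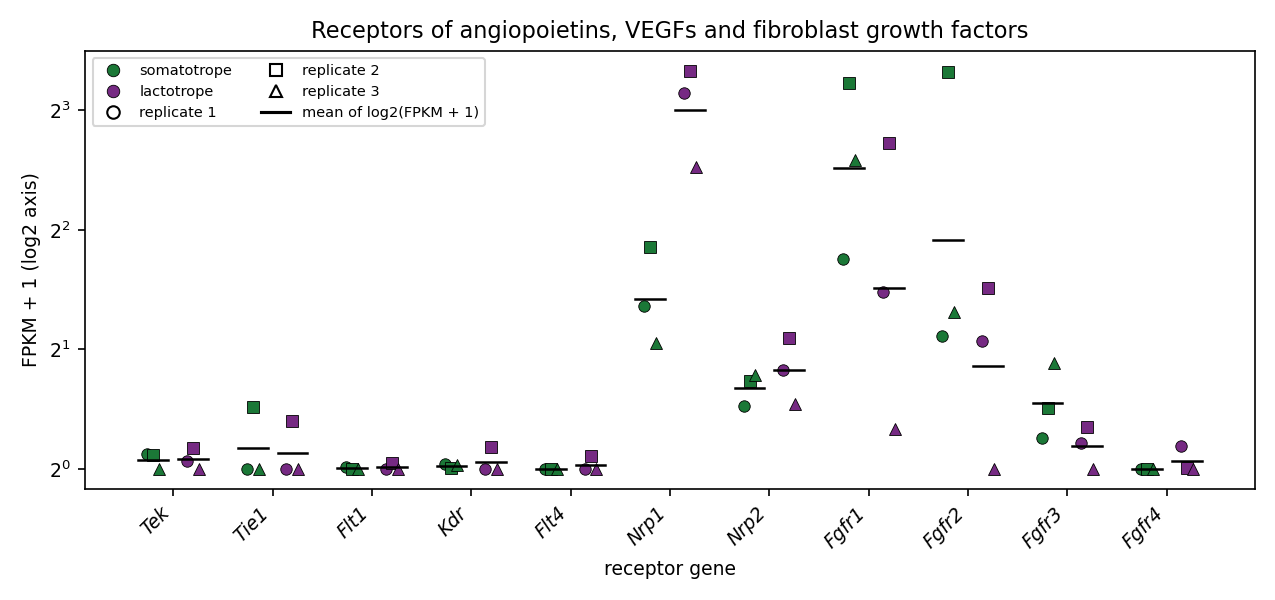
Level of 11 receptor genes (FPKM + 1, log2 axis) by cell type and replicate, with black bars for means on the log2 scale. Tek, Flt1, Kdr and Flt4 stay at or near 0 FPKM in all libraries, and Nrp1 is the receptor whose 3 lactotrope libraries all lie above its 3 somatotrope libraries.

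Markers of vessel cells were low but not absent. None of 11 endothelial and none of 10 mural (pericyte and smooth muscle) marker genes reached a mean of 1 FPKM. The summed endothelial markers were 1.84 to 4.61 FPKM in somatotropes and 0.0514 to 6.19 FPKM in lactotropes. Cldn5, a tight junction protein, was listed at 0 in 5 libraries. Other endothelial markers were higher in single libraries: Plvap reached 2.24 FPKM in lactotrope 2, Esam 2.42 FPKM in lactotrope 1 and Emcn 2.27 FPKM in somatotrope 3. The summed mural markers were 1.73 to 3.61 FPKM in somatotropes and 1.60 to 3.84 FPKM in lactotropes. Des, which encodes desmin, was listed at 0 in 5 libraries, whereas Notch3 had 0.506 to 1.06 FPKM over the 6 libraries.

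The tested markers of leukocytes and of folliculostellate and stem cells were abundant and stood on opposite sides. All 10 leukocyte markers were higher in lactotropes in each replicate, which held for 11.2% of all genes tested. Their summed levels were 70.1, 1114 and 695 FPKM in somatotropes 1 to 3 and 293, 3312 and 1607 FPKM in lactotropes 1 to 3. Angptl7 and Nrp1 were also higher in lactotropes. The part of leukocytes in their levels was not tested. Of 8 folliculostellate and stem markers, 7 were tested and all 7 were higher in somatotropes in each replicate. S100b, the marker not tested, had a mean under 1 FPKM and was mixed over the replicates. Its level was higher in lactotrope 2 than in somatotrope 2, and highest in somatotrope 3. The sums of all 8 markers were 308, 2582 and 1291 FPKM in somatotropes and 170, 795 and 165 FPKM in lactotropes. Neither list had a member that passed limma's test over all genes.

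The order of the 6 libraries by the folliculostellate and stem sum ran from somatotrope 2, somatotrope 3 and lactotrope 2 down to somatotrope 1, lactotrope 1 and lactotrope 3. Lactotropes 1 and 3 lay close, at 170 and 165 FPKM. Mia1 and Aldoc weighed most in the sum, with 1432 and 926 of 2582 FPKM in somatotrope 2. Taken singly, Aldoc and Slc1a3 had this order and the other markers of the list did not. Angptl4 and Pgf put the libraries in exactly the order of the sum, and no other member did. The same order held for 1.02% of the genes tested, to which Pgf does not belong. The orders of 13 other list sums were compared in the same way, and no member had the order of any of them. This match was noticed after the values were seen, and the part of these cells in the Angptl4 and Pgf levels was not tested.

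**Figure D4:**
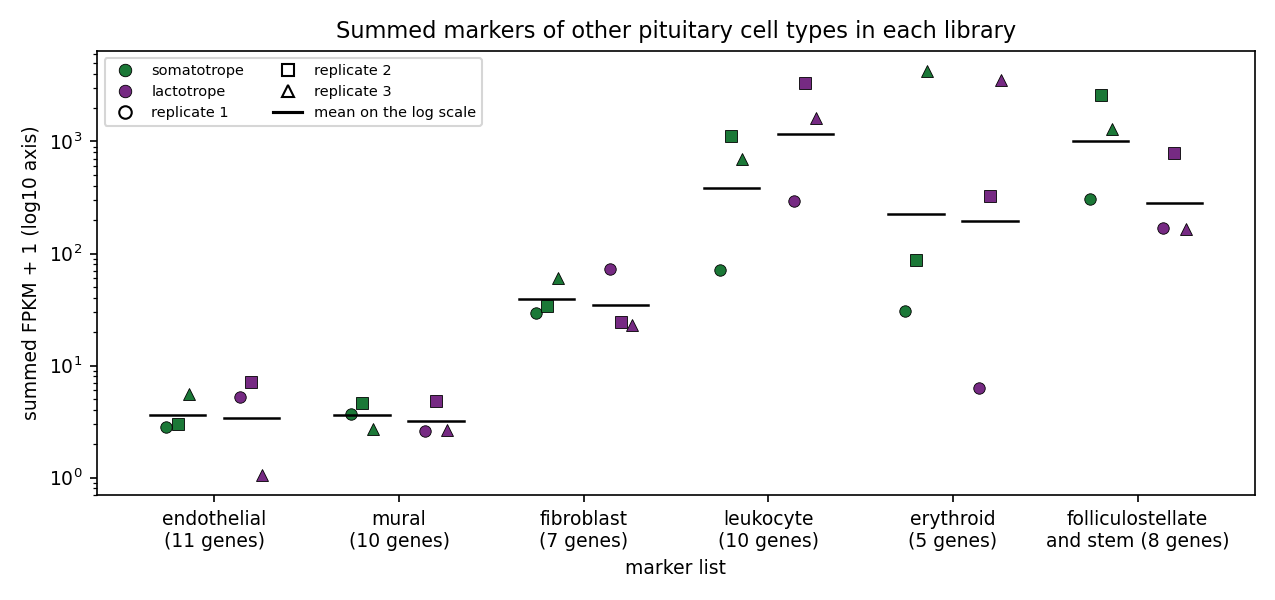
Summed FPKM + 1 of 6 marker lists on a log10 axis, by cell type and replicate, with a line at the mean on the log scale. Endothelial and mural sums do not exceed 6.19 FPKM in any library, while leukocyte sums are higher in the lactotrope library and folliculostellate and stem sums higher in the somatotrope library of each replicate.

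Relatives of the ligands outside the set were mostly low. Of 11 further ligand genes, 4 were tested, 2 of them were higher in somatotropes in each replicate (22.9% of all genes tested), and none passed limma's test. Angptl6 was the most abundant, at 62.0, 5.42 and 8.09 FPKM in somatotropes and 14.0, 7.82 and 1.34 FPKM in lactotropes, and its log2 difference of 1.19 (SE 0.92, adjusted p = 1.00) was 0.17 without somatotrope 1. Pdgfd, a platelet-derived growth factor, had 6.44, 4.68 and 3.70 FPKM in somatotropes and 1.01, 2.91 and a listed 0 FPKM in lactotropes. Its somatotrope libraries all lay above its lactotrope libraries, as for 2.51% of all genes tested, with a log2 difference of 1.55 (SE 0.74, limma adjusted p = 1.00). Its relative Pdgfa, with 1.75, 10.2 and 7.37 FPKM in somatotropes against 2.07, 7.43 and 1.58 FPKM in lactotropes, was mixed over the replicates.

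Genes of the low-oxygen response, which induces Vegfa and Angptl4 in many cells, were mostly expressed. Of 20 listed, 17 were tested, 6 were higher in somatotropes and 1 in lactotropes in each replicate (22.9% and 11.2% of all genes tested), and none passed limma's test. Their median log2 difference was 0.50 (0.17 to 0.84 over the alternatives), beside 0.18 over all genes tested. Hif1a, the oxygen-regulated factor, had 63.4, 11.3 and 9.20 FPKM in somatotropes and 54.3, 11.4 and 0.314 FPKM in lactotropes. Replicate 1 stood highest in both cell types, as for Vegfa, Vegfc, Angpt1, Angptl2 and Angptl7. Angptl4 was among the members that differed, with 2.96 FPKM in somatotrope 1 against 12.2 and 11.4 FPKM in somatotropes 2 and 3. How many genes of the table share the Hif1a pattern was not counted, and a link to these ligands was not tested. The log2 difference of Hif1a was 1.06 (SE 1.12, adjusted p = 1.00) and -0.38 without lactotrope 3. Bnip3, a mitochondrial target of that factor, had 105, 14.6 and 23.2 FPKM in somatotropes and 41.7, 10.5 and 8.84 FPKM in lactotropes. The log2 difference of 1.02 (SE 0.79, adjusted p = 1.00) was 0.20 without somatotrope 1. Slc2a1, the glucose transporter, and Ndrg1 had log2 differences of 1.08 (SE 0.83) and 1.28 (SE 0.77), which also did not pass (limma adjusted p = 1.00 for each). Without lactotrope 3 they were 0.17 for Slc2a1 and 0.70 for Ndrg1.

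The genes whose pattern over the 6 libraries was most like that of Angptl7 were Ptpro, a receptor tyrosine phosphatase, the histone gene Hist2h2bb and the kinase gene Cdkl4. Likeness was the mean absolute difference between mean-centred log2(FPKM + 1) values, and it was 0.41, 0.47 and 0.51 for these genes, where Angptl7 itself deviated by 1.19 on average from its own mean. Ptpro had 1.39, 2.38 and 1.02 FPKM in somatotropes and 15.9, 7.01 and 4.15 FPKM in lactotropes. Angpt1 was the member nearest to Angptl7, at rank 43 with 0.72. The genes most like Vegfa were Trpc1, a cation channel gene, Srprb, which encodes a subunit of the signal recognition particle receptor, and Mdh1, which encodes cytosolic malate dehydrogenase, at 0.06, 0.07 and 0.07. All of these comparisons rest on 6 libraries.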

How the data were processed

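The file the authors deposited holds FPKM, with a row for each RefSeq transcript and a column for each library. Columns were assigned to samples by the descriptions in the labels. The submitters' processing notes name bcl2fastq (version 2.17.1.14), TopHat, edgeR and genome build mm9, while the sources used here do not say how fragments were counted. FPKM are not counts, so no count test was run. Abundant hormone transcripts lower all other values of a library.

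Of 30399 rows, 889 without a symbol were left out. Values were tested as log2(FPKM + 1), which understates differences of low genes, if a gene's mean over the libraries reached 1 FPKM (11642 genes). The test was that of limma (version 3.58.1, R 4.3.3) with its trend over intensity, and p-values were adjusted over all genes (Benjamini-Hochberg). The code was checked on simulated data with less noise than is typical of these libraries. That check does not measure the power of the test here. Libraries with the same number in their titles deviated in the same direction from the means of their cell types (correlation across genes 0.763 for number 1, 0.613 for number 2, 0.341 for number 3). The labels do not say that a number marks a shared animal or day, and the cause of this likeness was not tested. The main test did not use the numbers, and blocking on them was an alternative. Promoter sequences are from RefSeq (GRCm38.p6), and their coordinates were not mixed with those of the table.

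The members and gene lists were chosen with earlier results of these data known. Genes named are the members, receptors with a mean of 1 FPKM or more, examples from the 2 most abundant and the 2 most different tested genes of each other list, and the 3 genes most like Angptl7 and Vegfa. Receptors and markers near 0, the vessel cell markers Plvap, Esam, Emcn and Notch3, and the folliculostellate marker S100b were named after their values were seen. Symbols of the lists were matched with RefSeq synonyms. Lists for other ligand partners, erythroid cells and fibroblasts were also computed: 0 of 10, 0 of 5 and 0 of 2 tested genes passed, with median log2 differences of 0.14, 0.05 and 0.21, and the sign of each turned in 4, 8 and 2 of 19 alternatives.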

Additional observations from a re-analysis of the deposited data

How the results depend on the processing

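Of 19 alternatives, none called a ligand gene other than Angptl7, which was not tested. The count of genes called over the whole table was 9 with array weights, 43 with array weights and the replicate block together, and 0 to 3 with 1 library left out (3 without somatotrope 1), and 0 in the other alternatives. With the replicate block alone the adjusted p of the 6 tested members ran from 0.397 (Angptl4) to 0.995 (Vegfc), and for Angpt1 it was 0.416. The block changed no call. The median of the 10 ligand genes kept its sign, at 0.11 to 0.58 with 1 library left out, where the median of all genes ran from -0.13 to 0.58. Median-ratio scaling gave 0.17 and quantile normalization 0.15, with medians of all genes of 0.05 and 0.02.

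Vegfc was -0.18 and -0.060 with pseudocounts of 0.1 and 0.5, -0.19 with median-ratio scaling, -0.20 with quantile normalization, -0.052 with equal sums without Gh and Prl, -0.19 with array weights, -0.42 with replicates 2 and 3 only, and -0.71 to 0.80 with 1 library left out. With 1 library left out Vegfa ran from -0.18 to 0.62, Hif1a from -0.38 to 2.32 and Plin2 from -0.55 to 0.54. The cause of these turns was not tested. The depth of 4 libraries is unknown, and Angpt2, Pgf and Fgf2 lie at levels where precision is poor.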

Other observations

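Of 14 listed inhibitors of angiogenesis, 6 were tested, 4 were higher in somatotropes and 2 in lactotropes in each replicate (22.9% and 11.2% of all genes tested), and none passed limma's test over all genes. Timp3, a matrix-bound inhibitor of metalloproteinases that also blocks VEGF signalling, had 17.7, 39.2 and 23.8 FPKM in somatotropes and 11.3, 21.0 and 3.53 FPKM in lactotropes (log2 difference 1.31, SE 0.68, adjusted p = 1.00). Cxcl10, an interferon-induced chemokine, had 0.124, 0.549 and 4.62 FPKM in somatotropes and 2.58, 9.06 and 11.2 FPKM in lactotropes (log2 difference -1.83, SE 0.83, adjusted p = 1.00). Sparc, a matrix protein, leaned the same way with -0.99 (SE 0.78, adjusted p = 1.00) and was -0.22 without somatotrope 1.

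Of 10 genes of the peroxisome proliferator-activated receptors, which induce Angptl4 in other tissues, 6 were tested. In each replicate 3 of these were higher in somatotropes and 0 in lactotropes (22.9% and 11.2% of all genes tested), and none passed limma's test. The median log2 difference of these 6 genes was 0.54, and it ran from -0.09 without lactotrope 3 to 1.26 without lactotrope 1. Cd36, a fatty acid transporter whose mean was under 1 FPKM, was named after its values were seen. It had 0.268, 0.429 and 0.348 FPKM in somatotropes and 1.08, 1.26 and 0.596 FPKM in lactotropes, without overlap. Lactotropes lay above in this way for 1.15% of all genes tested, to which Cd36 does not belong. Pdk4, a kinase that restrains pyruvate oxidation, had 7.64, 4.73 and 1.82 FPKM in somatotropes and 0.591, 1.75 and 0.190 FPKM in lactotropes, with somatotropes above and no overlap, as for 2.51% of all genes tested (log2 difference 1.58, SE 0.73, adjusted p = 1.00). Plin2, a lipid droplet protein, averaged 13.6 ± 8.59 FPKM (SD, n = 3) in somatotropes, within the spread of its 16.4 ± 14.5 FPKM (SD, n = 3) in lactotropes.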
